A study of Mus musculus with 9 samples.

Results

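The genes described here are the replication-dependent core histone genes of the mouse, taken as the protein-coding genes whose symbol starts with H2ac, H2bc, H3c or H4c and a number, or carried an older name of the Hist1 or Hist2 series. Linker histone H1 genes and pseudogenes were left out. The choice of genes also named the older Hist3h series, but its genes Hist3h2a and Hist3h2ba now carry the symbols H2aw and H2bu2, which do not match, so they were not counted among the 58 and are described apart, as is Hist4h4. Hist1h2br was treated differently: it was counted as an H2B gene by its older name, although its current RefSeq symbol does not match either. The rule found 58 genes among the 55487 in the table of estimated counts per gene: 17 for H2A, 17 for H2B, 12 for H3 and 12 for H4. Of these, 48 lie in the clusters on chromosome 13 and 10 in the cluster on chromosome 3.

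RNA was measured in explanted retinas of C57BL/6J mice, wild-type animals killed at postnatal day 28. Retinas freed of sclera and pigment epithelium were kept for 48 h in medium with 5 mM glucose. The medium of 1 group also held 20 mM 2-DG (2-deoxy-D-glucose), an inhibitor of glycolysis (4 libraries), that of the control group did not (5 libraries), and all retinas then spent 1 h in Krebs' Ringer medium. Total RNA was extracted and not selected for poly(A) tails, and each library was made from 4 ng of RNA with a stranded kit. The titles call the libraries biological replicates, and the labels give the same batch for all 9. The comparison asked how blocking glycolysis changes the level of histone mRNA. An explant holds all retinal cell types, so a lower value in these bulk libraries can come from fewer cells that make the mRNA or from less mRNA per cell, which cannot be told apart.

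Core histones form the protein spool of the nucleosome, in which DNA is wrapped around pairs of H2A, H2B, H3 and H4. Most of their genes are expressed mainly in S phase, and their mRNAs end in a short stem-loop, bound by SLBP, in place of a poly(A) tail. Some of the genes also give polyadenylated mRNAs that run past the stem-loop and persist in cells that no longer divide, such as the neurons of a mature retina.

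The stem-loop was found in 39 of the annotated transcripts of the 58 genes, as a 6-base inverted repeat that starts with GG around a loop of 4 bases that starts with TTT. The sequence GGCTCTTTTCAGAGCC was the most frequent form, in 23 of the 39. The stem-loops of 6 genes on which the results below turn are shown, from GENCODE M21 transcripts on GRCm38, with the stem and loop in capitals and 5 bases on either side in lower case:
H2ac6: ccaaaGGCTCTTTTCAGAGCCcccac
H2bc6: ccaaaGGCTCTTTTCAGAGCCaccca
H2bc11: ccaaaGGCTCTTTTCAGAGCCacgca
H3c4: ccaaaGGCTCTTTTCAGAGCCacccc
H4c9: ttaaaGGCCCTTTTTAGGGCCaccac
H4c14: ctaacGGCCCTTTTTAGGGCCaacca
They lie in the 3′ UTR, between 27 bases (H2bc11) and 38 bases (H4c14) after the stop codon. The H2bc11 transcript ends 23 bases after its stem-loop. The annotated transcripts of the other 5 genes run on for 330 (H4c9), 752 (H3c4), 1257 (H4c14), 1861 (H2bc6) and 2010 bases (H2ac6).

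The most abundant core histone genes of these explants were H2bc4 (ENSMUSG00000018102, chr13:23684199-23692908, plus strand), H2bc21 (ENSMUSG00000068854, chr3:96221119-96223738, plus strand), H2bc6 (ENSMUSG00000047246, chr13:23583670-23621124, minus strand) and H2ac6 (ENSMUSG00000069270, chr13:23681467-23683948, minus strand). Together these 4 genes, grouped after their values were seen, held 70.0% of all core histone counts. Per kilobase of exon, the mean level over the 9 libraries was 39.3 CPM for H2bc4, 7.12 for H2ac19, 6.21 for H4c9, 5.12 for H2bc21 and 4.12 for H4c1. H2bc4 makes a spliced mRNA of 2 exons in which no stem-loop was found, and H2bc21 has a single exon of 2620 bases without one.

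H2ac6 and H2bc4 are divergent neighbours. The 250 bases upstream of H2ac6, on the minus strand of chr13:23683960-23684209 (RefSeq, GRCm38.p6), reach past the annotated start of H2bc4 and are shown with the CCAAT box, the TATA box in its form TATAAA and the octamer ATTTGCAT in capitals, on either strand:
H2ac6 upstream: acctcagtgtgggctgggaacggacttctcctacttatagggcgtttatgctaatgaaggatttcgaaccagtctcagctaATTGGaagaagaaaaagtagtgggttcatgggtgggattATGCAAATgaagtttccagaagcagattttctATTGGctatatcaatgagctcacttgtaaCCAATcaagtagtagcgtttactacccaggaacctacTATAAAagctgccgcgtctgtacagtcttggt
Of the 52 core histone genes with an entry in the RefSeq promoter table, 80.8% held CCAAT in these 250 bases, against 37.5% of all 27025 genes, searched on both strands. TATAAA was found in 46.2% against 14.3%. The octamer, the core of the known H2B promoter element, was found in 25.0% against 1.81%: in 7 of 14 H2B and 6 of 17 H2A promoters, and in 0 of 10 H3 and 0 of 11 H4 promoters. CCAAT was in 17 of 17 H2A and 14 of 14 H2B promoters, and in 3 of 11 H4 promoters. Many H2A and H2B genes are divergent neighbours whose 250 bases overlap, such as H2ac13 and H2bc13. The same box can then be counted for both genes, so these promoters are not independent.

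Library totals ranged from 11318087 to 51802230 estimated counts, and core histone genes took 537 to 5493 of them, or 0.00437% to 0.0258%. In each library 29 to 47 of the 58 genes had at least 1 count. The reads carry no molecular identifiers here, so a floor of 3 counts, 0.0556 to 0.255 CPM, covers counting error only. Values of 2 libraries stood apart: control 2 had a sum of rod photoreceptor markers of 37535 CPM, against at most 12834 in the other control libraries, and 2-DG 4 had the highest core histone sum of its group. Values without each of them are given beside the class sums.

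Summed over the 58 genes, core histone RNA was 81.9, 273.6, 94.7, 137.1 and 177.5 CPM in the control libraries, in the order of their numbers, and 45.6, 45.6, 41.9 and 143.5 CPM in the 2-DG libraries. Libraries 2-DG 1 to 3 lay close together and below every control library, whereas 2-DG 4 lay above 3 of the 5. The group means were 153.0 ± 77.2 CPM (SD, n = 5) and 69.1 ± 49.6 CPM (SD, n = 4), a log2 ratio of -1.15. The log2 ratio was -1.79 without 2-DG 4 and -0.83 without control 2. Without H2bc4, the sum was 97.8 ± 50.6 CPM (SD, n = 5) in control and 35.9 ± 16.8 CPM (SD, n = 4) in 2-DG explants, a log2 ratio of -1.45, and the groups still overlapped. The make-up of the sum overlapped between groups for every class: H2B held 69.7% ± 4.92 of it in control (SD, n = 5) and 70.9% ± 6.92 in 2-DG libraries (SD, n = 4), H3 held 4.64% ± 0.997 and 5.02% ± 1.58, and H4 held 12.8% ± 4.17 and 14.2% ± 4.19. H2A had the widest shift, from 12.9% ± 1.31 to 9.84% ± 2.98, with 6.23% in 2-DG 3 and 8.69% in 2-DG 4, below the lowest control share of 11.6%. No share was tested.

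Of the 58 genes, 26 passed the filter on low counts and were tested with edgeR's quasi-likelihood test, with Benjamini-Hochberg adjustment over 21049 genes. The mean fold was below 0 on the log2 scale for 25 of the 26, where 50.8% of all genes tested were lower, and the median log2 fold change was -1.36, against -0.01 over all genes. By class, the median was -2.27 for 3 H2A genes, -1.69 for 10 H2B genes, -1.46 for 5 H3 genes and -0.96 for 8 H4 genes. At least a 2-fold lower value was fitted for 15 of the 26, against 9.37% of all genes. An unadjusted p under 0.05 was reached by 9, all lower, against 4.83% of all genes that were lower at this p (2.42% were higher). In 6 (H2ac6, H2bc6, H2bc11, H2bc22, H3c4 and H4c14) every 2-DG library lay below every control library as measured, against 1.41% of all genes, and in 0 every 2-DG library lay above (1.52%). No core histone gene, and 0 of the 21049 genes (0%), passed an adjusted p of 0.05. The smallest adjusted p among the 26 was 0.495, for H2ac6. Because a gene could pass the filter through the group in which it was high, these counts describe the 26 genes tested and not all 58.

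The tool mattered for the calls. DESeq2 called 4 of the genes at an adjusted p of 0.05, H2ac6, H2bc6, H3c4 and Hist1h2br, where it called 0.975% of all genes in this direction. limma-voom with sample quality weights, which lets an aberrant library count for less, called 10, where it called 4.27% of all genes. These were the same 4 with H2ac18, H2bc3, H2bc4, H2bc22, H3c6 and H4c14. Without 2-DG 4, edgeR gave 18 of 27 genes tested with an unadjusted p under 0.05 (9.49% of all genes), without control 4 it gave 7 of 19 (3.28%), and with the replicate number as a block it gave 8 of 26 (3.18%), with 0 past the adjusted threshold in each case.

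**Figure D1:**
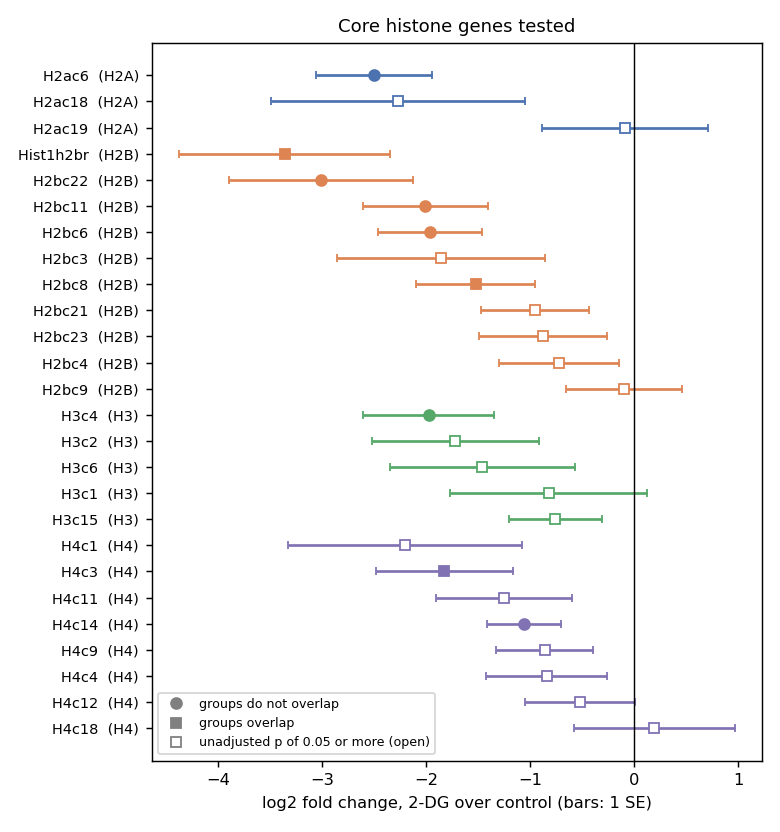
Fitted log2 fold change of 2-DG over control (x axis, bars 1 SE) for the 26 core histone genes tested, ordered by class. Circles mark the 6 genes whose groups do not overlap, squares the others, and open symbols an unadjusted p of 0.05 or more; 25 of the 26 lie left of 0 and H4c18 lies right of it at 0.19.

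Sums over a class do not depend on how reads were divided between copies of the same class among the 58. They still depend on reads shared with genes outside it, such as H1f4, Gm20634, which overlaps H2ac18 and H3c14 on the same strand, and the histone genes left out. H2A genes summed to 9.46, 31.7, 13.8, 18.6 and 23.0 CPM in control libraries and to 5.26, 5.88, 2.61 and 12.5 CPM in 2-DG libraries, and only 2-DG 4 reached into the control range. The log2 fold change was -1.56 ± 0.49 (SE), with an unadjusted p of 0.00905 and an adjusted p of 0.553. H2B genes summed to 58.5, 211.1, 65.1, 91.5 and 114.2 CPM in control and to 29.9, 29.4, 31.4 and 112.7 CPM in 2-DG libraries, which gave a log2 fold change of -1.09 ± 0.52 (SE) and an adjusted p of 0.709. The H2B sums of 2-DG 1 to 3 lay close together, and that of 2-DG 4 was close to control 5.

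H3 genes summed to 3.54, 10.8, 5.88, 5.11 and 8.85 CPM in control and to 2.29, 2.21, 2.95 and 4.55 CPM in 2-DG libraries, a log2 fold change of -1.18 ± 0.42 (SE, with an adjusted p of 0.606). H4 genes summed to 10.4, 20.0, 9.93, 21.9 and 31.4 CPM in control and to 8.15, 8.06, 4.95 and 13.8 CPM in 2-DG libraries, a log2 fold change of -1.10 ± 0.42 (SE, with an adjusted p of 0.636). In both classes 2-DG 4 was the one 2-DG library inside the control range. No class sum passed the adjusted threshold, and 4.82% of all rows of that fit were lower at an unadjusted p under 0.05; 3 of the 4 class sums were, with 0.0622 for H2B.

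Which genes were counted mattered: with Hist4h4 the H4 log2 fold change turned to 0.27, and with Hist3h2a that of H2A was -0.96. Hist4h4 was at 144.8 CPM in 2-DG 4, against 7.28 to 16.05 CPM in the other 2-DG libraries and a control mean of 25.1 CPM. A value of the H4 sum with Hist4h4 but without 2-DG 4 is not given here. For the class sums without these added genes, leaving out a single library moved the size of the differences and not their direction. Without 2-DG 4 the log2 fold changes were -2.08 (H2A), -1.84 (H2B), -1.45 (H3) and -1.42 (H4), and without control 2 they were -1.31, -0.70, -0.96 and -1.08. The limma-voom fit with sample weights gave adjusted p-values of 0.0189 for H2A, 0.0218 for H2B and 0.0374 for H3, and 0.0616 for H4.

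**Figure D2:**
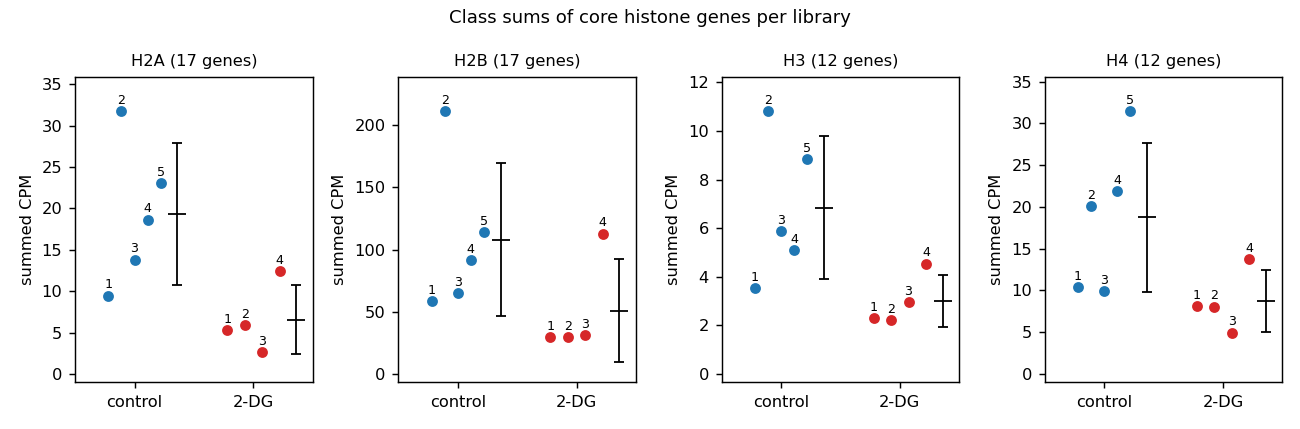
Summed CPM of the genes of each class (y axis, linear from 0) in the 5 control and 4 2-DG libraries, each point numbered by its replicate, with the group mean and SD in black. In each class the 2-DG libraries 1 to 3 lie below all control libraries, and 2-DG 4 lies among the control libraries.

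Among H2A genes, 3 of 17 were tested. H2ac6 held 60.2% of the H2A counts. Its level was 5.42, 27.99, 11.3, 10.7 and 14.4 CPM in control and 1.10, 2.15, 1.87 and 4.60 CPM in 2-DG libraries, so the highest 2-DG library lay below the lowest control. The log2 fold change was -2.50 ± 0.56 (SE; unadjusted p of 0.00101, adjusted p of 0.495), and it stayed between -3.01 and -2.09 when any 1 library was left out. The gene is well resolved from its copies, since 83.1% of its 31-mers occur in no other gene's annotated transcripts, though a small rRNA-derived gene (Gm24991) lies on the same strand within its exon.

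H2ac18 and H2ac19, which lie near each other in the chromosome 3 cluster, are copies in which 0% of 31-mers are particular to the gene, so how their reads were divided is uncertain. H2ac19 was at 2.35, 2.79, 1.60, 6.30 and 6.20 CPM in control and 3.90, 3.42, 0.148 and 7.12 CPM in 2-DG libraries, with wide overlap and a log2 fold change of -0.09 ± 0.80 (SE, with an adjusted p of 0.986). H2ac18 was at 0.808, 0, 0.534, 0.606 and 0.679 CPM in control and at 0, 0, 0 and 0.400 CPM in 2-DG libraries, on 86 counts in all. Its fitted log2 fold change was -2.27 ± 1.22 (SE; adjusted p of 0.739), and the value in 2-DG 4 was the only one above 0 in its group. Without 2-DG 4, which leaves every 2-DG library at 0, the fitted value was -6.90, a size that depends on the fit's prior count and is no bound, and the limma-voom fit gave -4.35.

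Among H2B genes, 10 of 17 were tested, and H2bc4 held 57.2% of the H2B counts. H2bc4 was at 27.2, 93.8, 32.2, 55.02 and 67.8 CPM in control and at 20.3, 16.8, 13.5 and 82.6 CPM in 2-DG libraries. Library 2-DG 4 lay above 4 of the 5 control libraries, whereas the other 3 lay below all of them. The log2 fold change was -0.73 ± 0.58 (SE; adjusted p of 0.813), and it was -1.71 without 2-DG 4 and -0.45 without control 2.

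H2bc6 was at 13.5, 41.3, 16.9, 14.3 and 16.8 CPM in control and at 2.80, 3.39, 4.39 and 10.4 CPM in 2-DG libraries, with no overlap and a log2 fold change of -1.96 ± 0.50 (SE, with an unadjusted p of 0.00250 and an adjusted p of 0.524). Most of its counts, 69.4%, were assigned to a single-exon transcript that is annotated as non-coding (Hist1h2be-203, chr13:23618980-23621078) and not to the histone mRNAs. That transcript shares 450 bases with the span of the linker histone gene H1f4 and 320 with the pseudogene Gm11398, on the same strand. Its own log2 fold change was -2.07 ± 0.62 (SE), and those of the coding transcripts Hist1h2be-202 and Hist1h2be-201 were -2.47 ± 1.42 and -0.58 ± 1.29. H1f4 itself was at 9.73 ± 2.66 CPM in control (SD, n = 5) and 1.67 ± 0.488 CPM in 2-DG explants (SD, n = 4), with no overlap and a log2 fold change of -2.54 ± 0.36 (SE, with an adjusted p of 0.189). How reads were divided between H1f4 and H2bc6 was not tested.

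H2bc22 and H2bc11 are low in these explants, with 56 and 101 counts over all libraries. H2bc22 was at 0.192, 0.573, 0.382, 0.343 and 0.614 CPM in control and at 0, 0.156, 0 and 0.0286 CPM in 2-DG libraries (log2 fold change of -3.01 ± 0.88, SE, or -4.84 without 2-DG 2). H2bc11 was at 0.500, 0.358, 0.382, 0.975 and 0.775 CPM in control and at 0.255, 0.187, 0.0371 and 0.172 CPM in 2-DG libraries (log2 fold change of -2.01 ± 0.60, SE). The adjusted p was 0.526 for each. As measured, every 2-DG library was below every control library in both genes, but for H2bc22 this is not resolved at these depths: the floor of 3 counts in 2-DG 1, at 0.255 CPM, lies above the value of control 1.

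The remaining H2B genes tested had log2 fold changes from -3.36 ± 1.01 (Hist1h2br) to -0.10 ± 0.56 (H2bc9). Hist1h2br is named because DESeq2 called it, after its values were seen. It was at 30.5 CPM in control 2 and at 1.92 to 6.85 CPM in the other control libraries, against 0.280 to 2.03 CPM in 2-DG libraries, and 10.5% of its 31-mers are particular to it. Of its counts, 89.6% were assigned to a transcript annotated as subject to nonsense-mediated decay (Hist1h2br-201). H2bc21 was at 10.04, 39.0, 8.78, 11.8 and 15.8 CPM in control and at 4.58, 5.60, 10.5 and 14.5 CPM in 2-DG libraries, with overlap and a log2 fold change of -0.95 ± 0.52 (SE, with an adjusted p of 0.740).

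**Figure D3:**
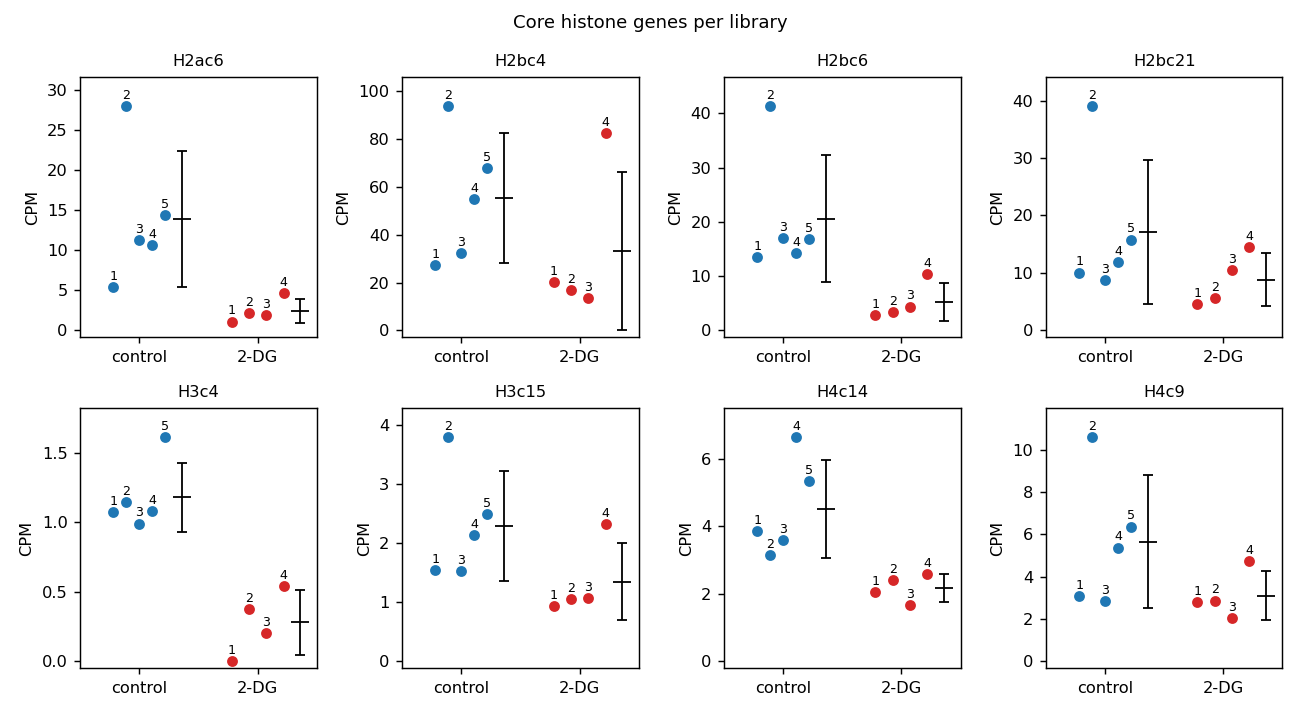
CPM of 8 core histone genes (y axes, linear from 0) in each control and 2-DG library, each point numbered by its replicate, with the group mean and SD in black. The groups do not overlap for H2ac6, H2bc6, H3c4 and H4c14, whereas 2-DG 4 lies within the control range for H2bc4, H2bc21, H3c15 and H4c9.

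Among H3 genes, 5 of 12 were tested, all with a fitted fold below 0. H3c15 was the most abundant, with 37.8% of the H3 counts, and was at 1.54, 3.79, 1.53, 2.13 and 2.49 CPM in control and at 0.934, 1.06, 1.07 and 2.32 CPM in 2-DG libraries (log2 fold change of -0.76 ± 0.45, SE; adjusted p of 0.757), and the log2 fold change was -0.51 without control 2 and -1.16 without 2-DG 4. H3c4 was at 1.08, 1.15, 0.993, 1.08 and 1.62 CPM in control and at 0, 0.373, 0.204 and 0.543 CPM in 2-DG libraries. Its groups did not overlap, and its log2 fold change was -1.98 ± 0.63 (SE; adjusted p of 0.546). H3c2 was at 0.115 to 0.808 CPM in control and at 0.0311 to 0.424 CPM in 2-DG libraries, with overlap. Its log2 fold change was -1.72 ± 0.80 (SE, with an adjusted p of 0.694), or -2.49 without 2-DG 1 and -1.32 without 2-DG 2.

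Among H4 genes, 8 of 12 were tested, 7 with a fitted fold below 0. H4c14 was at 3.85, 3.15, 3.59, 6.64 and 5.33 CPM in control and at 2.04, 2.40, 1.67 and 2.57 CPM in 2-DG libraries. Its groups did not overlap, 97.4% of its 31-mers are particular to it, and its log2 fold change of -1.06 ± 0.35 (SE; adjusted p of 0.586) had the smallest standard error of the 26 genes. Leaving out any 1 library kept it between -1.17 and -0.91.

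H4c9, with 29.7% of the H4 counts, was at 3.08, 10.6, 2.82, 5.38 and 6.37 CPM in control and at 2.80, 2.86, 2.02 and 4.72 CPM in 2-DG libraries, with overlap (log2 fold change of -0.86 ± 0.46, SE; adjusted p of 0.739). The value was -0.51 without control 2 and -1.14 without 2-DG 4. H4c3 was at 0.385, 2.86, 1.22, 1.69 and 3.20 CPM in control and at 0.594, 0.467, 0.204 and 0.858 CPM in 2-DG libraries, where only control 1 lay inside the 2-DG range (log2 fold change of -1.83 ± 0.66, SE; adjusted p of 0.610). H4c1 was at 11.1 CPM in control 5 and 3.74 CPM in control 4, against 0.358 to 0.916 CPM in the other control libraries and 0.0741 to 2.00 CPM in 2-DG libraries. Its log2 fold change was -2.20 ± 1.12 (SE; adjusted p of 0.715), and it was -1.02 without control 5 and -3.49 without 2-DG 4. H4c18 was the 1 tested gene with a fold above 0, at 0.19 ± 0.77 (SE; adjusted p of 0.962).

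The 32 genes that were not tested had 0.791 CPM or less on average over the 9 libraries. Of these, 5 were at 0 in every library: H2ac1, H2ac22, H2ac24, H2bc1 and H2bc13. H2ac1 and H2bc1 are the testis forms of H2A and H2B. A further 9 had fewer than 10 counts in all. Of the 27 with any count, 22 had a lower mean CPM in 2-DG than in control explants, which is a description of low counts and not a test.

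The genes were also grouped by how much of their sequence they share with other genes. Among the 16 genes with over 50% of 31-mers in no other gene, which held 83.3% of the core histone counts and include H2bc6, 13 were tested. Of these, 13 had a fold below 0 (50.8% of all genes tested did), and the median log2 fold change was -1.25. Among the other 42 genes, 13 were tested, 12 had a fold below 0 and the median was -1.46. The part of read sharing in the lower values was not tested. By cluster, the 21 genes tested on chromosome 13 had a median of -1.53 and the 5 on chromosome 3 a median of -0.95; the difference between clusters was not tested. The 58 genes hold 53 distinct coding sequences, and 10 of the genes share theirs with another.

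Transcript counts were grouped by the annotated 3′ end of each transcript, and most of the 58 genes have a single annotated transcript. Transcripts that end at the stem-loop held 6.86% of the core histone counts, those that run past it 24.9%, and those without a match 67.0%. The last include the H2bc4 mRNA and the non-coding Hist1h2be-203 (2057 counts). They also include Hist1h2br-201 (884 counts) and Hist1h2bq-203 (151 counts), both annotated as subject to nonsense-mediated decay. In the remaining 1.19%, the annotation stops at the coding end and cannot show the stem-loop. Most core histone counts were assigned to annotated transcripts other than those that end at the stem-loop. H2ac6, for example, is annotated only with a transcript that runs past its stem-loop. Reads of a shorter H2ac6 mRNA could only be counted on that transcript. The shares therefore follow which genes were counted and do not measure which 3′ end was present.

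Transcripts that run past the stem-loop summed to 43.1 ± 19.4 CPM in control (SD, n = 5) and 14.4 ± 6.99 CPM in 2-DG libraries (SD, n = 4), a log2 ratio of -1.58. Of 18 such transcripts, 13 were tested, 13 had a fold below 0 (48.9% of all 62900 transcripts tested did) and 5 had an unadjusted p under 0.05, against 2.28% of all transcripts that were lower at this p. Transcripts that end at the stem-loop summed to 8.96 ± 5.42 and 5.91 ± 4.88 CPM, a log2 ratio of -0.60, with H2ac19 as their most abundant member. Of 21, 7 were tested, 6 had a fold below 0 and 1 had an unadjusted p under 0.05, with a median log2 fold change of -1.73. Transcripts without a match summed to 106.0 ± 63.9 and 50.3 ± 46.6 CPM, a log2 ratio of -1.07. Their 2-DG sums ran from 25.5 CPM to 120.1 CPM in 2-DG 4, where the H2bc4 transcript alone was at 91.2 CPM. Of these transcripts, 7 of 7 tested had a fold below 0, with a median of -2.05, and 2 had an unadjusted p under 0.05. The sums overlapped between groups for every form, no core histone transcript passed an adjusted p of 0.05 (0% of all transcripts did), and whether the forms differ in their fold was not tested.

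**Figure D4:**
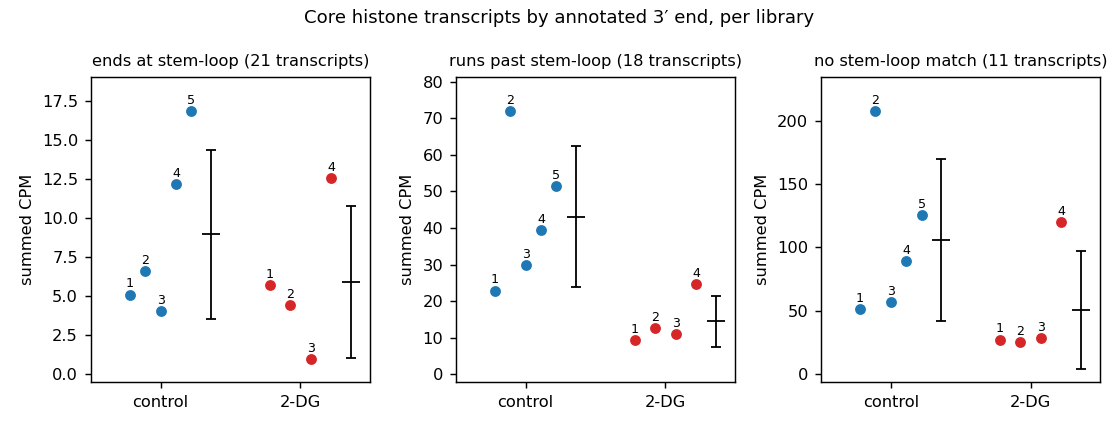
Summed CPM of core histone transcripts (y axes, linear from 0) by annotated 3′ end in each control and 2-DG library, each point numbered by its replicate, with the group mean and SD in black. For transcripts that run past the stem-loop, 2-DG 4 reaches just above control 1 and the other 2-DG libraries lie below all control libraries; for those that end at the stem-loop the groups overlap widely.

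Histone genes not counted among the 58 gave a mixed picture. Of 11 core histone genes listed as replication-independent or outside the Hist1 and Hist2 series, 8 had a fold below 0, against 50.8% of all genes, and 1 was lower at an unadjusted p under 0.05, against 4.83% of all genes, with a median log2 fold change of -0.22. H3f3b, which encodes H3.3, was at 1059 ± 223.9 CPM in control (SD, n = 5) and 890.1 ± 206.5 CPM in 2-DG explants (SD, n = 4), a log2 fold change of -0.25 ± 0.28 (SE). The gene below an unadjusted p of 0.05 was H2aw (older name Hist3h2a), at 28.5 to 75.3 CPM in control and 23.1 to 28.1 CPM in 2-DG libraries. Its groups did not overlap (1.41% of all genes lay below in this way), with a log2 fold change of -0.76 ± 0.30 (SE, with an adjusted p of 0.637). H4f16 (older name Hist4h4), an H4 gene on chromosome 6, was at 3.88 to 43.5 CPM in control and at 8.23, 7.28, 16.05 and 144.8 CPM in 2-DG libraries. Library 2-DG 4 held 5064 of its 9435 counts, and the other 2-DG libraries lay below its control mean of 25.1 CPM. The H4 sum that includes H4f16, at a log2 fold change of 0.27, had an adjusted p of 0.949. The H2A sum with Hist3h2a had an adjusted p of 0.541, and with Hist3h2ba the H2B sum had -1.06 (adjusted p of 0.691).

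Of 22 genes for making and processing histone mRNA and for supplying histones to chromatin, 7 had a fold below 0, against 50.8% of all genes. The median log2 fold change was 0.16. At an unadjusted p under 0.05, 1 was lower (4.83% of all genes) and 1 higher (2.42%), and 0 passed the adjusted threshold. The 22 genes summed to 981.4 ± 45.9 CPM in control (SD, n = 5) and 1088 ± 86.6 CPM in 2-DG explants (SD, n = 4), with overlap. Slbp, the stem-loop binding protein, was at 34.1 ± 5.26 CPM in control (SD, n = 5) and 38.3 ± 11.2 CPM in 2-DG explants (SD, n = 4), a log2 fold change of 0.17 ± 0.24 (SE). Npat, the coactivator of S-phase histone transcription, was at 35.7 ± 11.4 CPM in control (SD, n = 5) and 56.4 ± 12.3 CPM in 2-DG explants (SD, n = 4), with a log2 fold change of 0.66 ± 0.27 (SE, with an adjusted p of 0.656). Zfp473, a zinc finger protein of histone 3′ end processing, was at 4.50 to 13.0 CPM in control and 2.09 to 3.17 CPM in 2-DG libraries. Its groups did not overlap (1.41% of all genes lay below in this way), with a log2 fold change of -1.49 ± 0.40 (SE, with an adjusted p of 0.524).

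Of 25 genes of S phase and division, 8 had a fold below 0, against 50.8% of all genes, with a median log2 fold change of 0.16. At an unadjusted p under 0.05, 2 were lower (4.83% of all genes) and 0 higher (2.42%). The 25 genes summed to 433.9 ± 106.6 CPM in control (SD, n = 5) and 466.9 ± 189.4 CPM in 2-DG explants (SD, n = 4), with overlap. Their sum was highest in 2-DG 4, at 742.9 CPM, the library with the highest core histone sum of its group, and lowest among control libraries in control 2, at 334.8 CPM, the library with the highest core histone sum of all 9. Mki67, a marker of dividing cells, had a log2 fold change of -2.17 ± 0.94 (SE) and an adjusted p of 0.687. Pcna, the replication clamp, had a log2 fold change of 0.20 ± 0.31 (SE).

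Markers of retinal and neighbouring cells varied widely within both groups, and each of the 11 marker sums overlapped between them. In 2-DG 4 the endothelial and pericyte marker sum was 2503 CPM, the highest of all 9 libraries, and the bipolar cell sum was 268.8 CPM, the lowest of its group. Rod markers summed to 4384 CPM or more in every library, which bears on the tissue only and cannot check which libraries had 2-DG. Among Müller glia markers, 4 of 5 had a fold below 0 (50.8% of all genes did) and 3 were lower at an unadjusted p under 0.05 (4.83% of all genes were), and they summed to 1420 to 6202 CPM in control and 603.5 to 2707 CPM in 2-DG libraries, with no marker of the list at 0. A sum of 6 skeletal muscle markers, from 9.95 to 67.9 CPM in control and from 14.3 to 27.4 CPM in 2-DG libraries, was led by Myod1 in control and by Des in 2-DG libraries, with Myh4 at 0 in each control library. Myod1 was at 26.1 ± 16.2 CPM in control (SD, n = 5) and 1.88 ± 1.90 CPM in 2-DG explants (SD, n = 4), with a fitted log2 fold change of -3.77 ± 1.05 (SE, with an adjusted p of 0.524), farther from 0 than that of any core histone gene tested. Pigment epithelium markers summed to 93.3 CPM in 2-DG 3, against 3.40 to 27.3 CPM in all other libraries. The part of these differences in the histone values was not tested.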

How the data were processed

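RNA-seq libraries of 5 control and 4 2-DG retinal explants were compared. The authors deposited estimated counts per gene (55487) and per transcript (142699); the submitters' processing notes name kallisto and GRCm38, and the annotation release is not given in the sources used here. Also deposited by the authors were CPM scores, computed on a library size they had scaled, which hold 5 of the core histone genes among 12568 and entered no test, and a table of fold changes and p-values for 2-DG against control, which was not used. Groups and replicate numbers came from the sample titles, and 0 columns were left without a sample.

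Estimated counts were rounded (totals moved by at most 0.00377%), filtered with filterByExpr, scaled with TMM and tested with edgeR 4.0.16 (R 4.3.3; glmQLFit with legacy=TRUE, robust=FALSE; glmQLFTest) on all 9 libraries with group as the only term. P-values were two-sided and adjusted by Benjamini-Hochberg over 21049 genes or 62900 transcripts, with a threshold of 0.05. For class sums, the rows of the genes were replaced by 4 rows of summed counts in the same table. CPM use the TMM-scaled library size, and the SE was taken as the size of the log2 fold change over the root of F. The sum over all core histone genes has no test. The fit was tested on simulated data.

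Genes given by name are, per class, the one with the highest mean CPM and the 3 tested with the smallest p-values; any others were chosen after their values were seen. The genes, lists and named-gene rule were chosen with earlier results of these data known. Symbols and older names came from RefSeq on GRCm38.p6, and exons, 31-mers and stem-loops from GENCODE M21. Stem-loops were searched between the stop codon and the transcript end, and a transcript was called to end there if at most 60 bases followed the stem-loop. Alternatives were DESeq2 1.42.0, limma 3.58.1 voom with sample weights, other scalings, no filter, robust=TRUE, a replicate block, the transcript table and leaving out each library. Depth was 11318087 to 51802230 counts per library.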

Additional observations from a re-analysis of the deposited data

Results flagged for a closer look

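In 7 of 38 groups of values examined (14 genes, 4 class sums and the total, in each of the 2 treatments) 1 library lay far from the rest of its group by Dixon's gap test, where chance flags about 1 in 20. In the 2-DG group the library was 2-DG 4 each time, and the values there were 82.6 CPM for H2bc4 (next highest 20.3), 2.32 CPM for H3c15 (next 1.07), 0.400 CPM for H2ac18 (the others at 0), 112.7 CPM for the H2B sum (next 31.4) and 143.5 CPM for the core histone sum (next 45.6). The H2B sum and the total include H2bc4, so these flags are not independent. In the control group H2bc6 was at 41.3 CPM in control 2 (next 16.9) and H3c4 at 1.62 CPM in control 5 (next 1.15).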

How the results depend on the processing

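Of the 7 main results, the class sums for H2A, H2B and H3 kept their direction in every fit run. The H4 sum turned to 0.27 when Hist3h2a, Hist3h2ba and Hist4h4 were counted in, an alternative added after the data were seen. H4 gains Hist4h4 alone in it, a gene at 144.8 CPM in 2-DG 4 and at 16.05 CPM or less in the other 2-DG libraries. H2A was then at -0.96. DESeq2 called 4 genes past the adjusted threshold, against 0 with edgeR. The limma-voom fit with sample weights called 10, gave 19 genes lower at an unadjusted p under 0.05 against 9 (15.4% of all genes were), and moved H2A (-1.65), H2B (-1.39) and H3 (-1.16) past the threshold; the cause was not tested. Leaving out 1 library at a time gave 7 to 18 genes lower (highest without 2-DG 4), 0 to 0 past the adjusted threshold, and log2 values of -2.08 to -1.29 (H2A), -1.84 to -0.70 (H2B), -1.45 to -0.96 (H3), -1.42 to -0.85 (H4) and -1.79 to -0.83 (total). H2ac19 ranged from -0.66 to 0.32 and turned positive without control 4 (0.12), control 5 (0.14) or 2-DG 3 (0.32). H2B without H2bc4, also added, was at -1.59. Other scalings moved the median of all genes to at most -0.09. The labels give no source that same-numbered libraries share. Their deviations correlated at 0.45, -0.15, 0.10 and 0.21, not all above 0.1, and 4 of 8 libraries correlated best with their own number, so the numbers were not taken as pairs. With the replicate block, 8 genes were lower at an unadjusted p under 0.05 (3.18% of all genes) and 0 passed the adjusted threshold, with class sums of -1.57 (H2A), -1.12 (H2B), -1.01 (H3) and -0.84 (H4). At these counts 32 of 58 genes did not pass the filter, and single-gene values are uncertain where 0% of a gene's 31-mers are its own.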
